A study of Homo sapiens with 6 samples.

Results

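Sestrins, DDIT4 and DDIT4L, the Rag GTPases RagC and RagD, and the mTORC1 components MTOR, RPTOR and DEPTOR are described here in MIA PaCa-2 cells, a human pancreatic cancer cell line, with or without recombinant human cytoglobin (rhCYGB). The 10 genes were chosen by symbol, with earlier results of these data known, and all 10 were found among the 35993 genes of the count table. The study asked how extracellular cytoglobin (CYGB), a haem-containing globin of stellate cells, acts on pancreatic cancer cells, and sequenced mRNA from 3 untreated and 3 treated samples. Both groups were the same cell line, moved to medium with 1% fetal bovine serum on the day before treatment. The rhCYGB group received the protein at 4 µM for 48 h, and the untreated group is called Control. The labels describe no separate vehicle for the protein. They also do not say whether the 3 samples of a group came from separate cultures, so p-values measure the spread between these samples, which may be technical.

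The kinase mTOR forms a complex with its scaffold Raptor, mTORC1, which drives protein synthesis and cell growth when nutrients are plentiful. Amino acids act through the Rag GTPases, pairs of RagA or RagB with RagC or RagD that bring mTORC1 to the lysosome. Sestrins bind the GATOR2 complex and thereby restrain the Rag GTPases, and SESN2 also senses leucine. DDIT4, also called REDD1, lowers mTORC1 activity through the TSC complex, which turns off RHEB, the GTPase that activates mTOR. DEPTOR binds mTOR directly and inhibits it.

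In rhCYGB-treated cells, DDIT4 was 11.4-fold and SESN2 9.13-fold higher than in untreated cells, and RRAGD and RRAGC, which encode RagD and RagC, were 4.22-fold and 3.74-fold higher. DDIT4L and SESN1 rose by less than 2-fold. MTOR, RPTOR and DEPTOR fell by less than 2-fold, and SESN3 was close to undetectable in both groups. Genes were compared with edgeR's quasi-likelihood test over the 14728 genes that passed its filter on low counts, and all 10 passed. The call required a change of at least 2-fold and an adjusted p (Benjamini-Hochberg) under 0.05.

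Of the 10 genes, 4 were called higher, against a background of 12.4% of all genes tested. Because the genes were chosen with earlier results known, such comparisons with the background are descriptions only. The gene called lower was SESN3 (1 of 10, background 14.7%), and 27.1% of all genes tested were called in either direction. With the adjusted p alone, 6 were higher and 4 lower, which is all 10, but 77.6% of all genes tested passed that limit too. The median log2 fold change was 0.74 over the 10 genes and -0.0046 over all genes tested. For each of the 10 genes the TMM-scaled CPM, counts relative to library size, of the 3 treated libraries lay on the same side of the 3 Control libraries. For SESN3 the gap was only 0.245 CPM in Control replicate 2 against 0.244 in rhCYGB replicate 3. The share of all genes tested with such a separation was not counted, so it is not read as a trait of the 10 genes. Fewer cells of a kind and less RNA per cell cannot be told apart in such bulk samples.

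**Figure D1:**
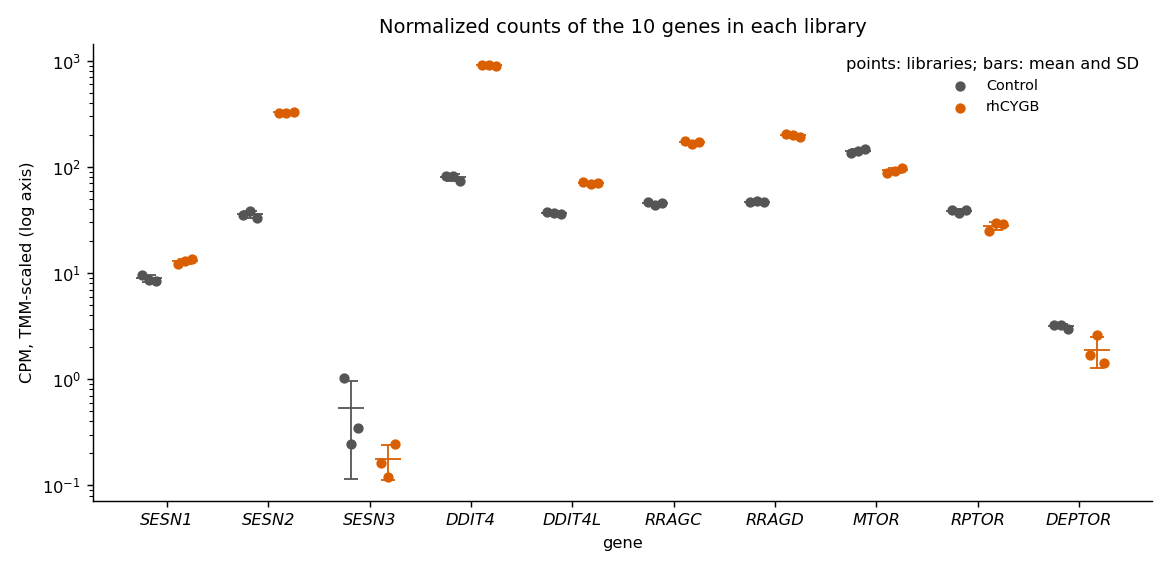
Normalized counts of the 10 genes in each library, as CPM after TMM scaling on a log axis, with Control in grey and rhCYGB in orange. Points are libraries, short bars mark the mean and whiskers the SD of 3 libraries. The treated DDIT4 libraries sit near 909 CPM against 79.7 in Control, while the Control libraries of SESN3 are spread around 0.536 CPM.

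The 6 libraries held between 34838399 and 42271299 counts, so a floor of 3 counts corresponds to 0.0669 to 0.0902 CPM. Of 7 genes listed as epithelial and pancreatic cancer markers, KRT8, KRT18, KRT19 and VIM were high in both groups. The study used vimentin, the product of VIM, as a marker of stellate cells, so VIM does not mark epithelial cells here. Mean FPKM in Control and with rhCYGB was 1075 and 546 for KRT8 and 175 and 102 for KRT19. For KRT18 it was 1086 and 996, and for VIM 3468 and 4535. KRT7 had 21 to 38 counts, while EPCAM was at 0 counts in every library and CDH1 at 2 or fewer. Of 5 immune markers 4 were at 0 everywhere, and the summed level of the list, which was CD68 alone, was 19.0 to 20.8 FPKM in Control and 34.6 to 35.1 FPKM with rhCYGB. Of 4 endothelial markers 2 were at 0, and the sum, nearly all of it from CDH5 alone, was 25.2 to 27.8 FPKM in Control and 2.16 to 2.72 FPKM with rhCYGB. Of 7 fibroblast or stellate cell markers, a list that left out VIM, 2 were at 0, and the sum was 3.56 to 3.86 against 2.45 to 2.59 FPKM. The part of these markers in the results was not tested. CYGB itself had 0 counts in all 6 libraries.

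Among the sestrins, SESN2 showed by far the largest change. SESN2 had 1317, 1742 and 1355 counts in the Control libraries and 12042, 10813 and 12263 in the treated ones. Every treated library thus lay far above every Control library. Its CPM went from 35.8 ± 2.85 to 327 ± 4.68 (SD, n = 3 each), a log2 fold change of 3.19 (SE 0.051, adjusted p = 3.37e-16, edgeR's quasi-likelihood test). This was the 126th largest log2 fold change of the 14728 genes. SESN2 is also among the gene names read by eye from the study's heatmap of antioxidant genes in these same libraries, so its choice here is not independent of them.

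SESN1, a sestrin known as a target of p53 and of FOXO factors, had 357, 388 and 346 counts in Control and 456, 431 and 505 with rhCYGB. The groups did not overlap, but the gap was small beside that of SESN2. Its CPM was 8.91 ± 0.591 and 13.0 ± 0.712 (SD, n = 3), a log2 fold change of 0.54 (SE 0.091, adjusted p = 5.95e-05, edgeR's quasi-likelihood test). In FPKM, which also divides by transcript length, the groups overlapped, at 2.18 to 2.42 in Control and 2.10 to 2.92 with rhCYGB. On log2(FPKM + 1) the change was 0.10, and limma gave an adjusted p of 0.325. The locus of SESN1 overlaps that of CEP57L1, which had up to 783 counts in a library and a log2 fold change of 0.22 (SE 0.063, adjusted p = 0.00498, edgeR). Whether counting used strand is not stated, so reads of the overlap cannot be told apart.

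SESN3, also known as a FOXO target, had 38, 11 and 14 counts in Control and 6, 4 and 9 in treated libraries. Control replicate 1 stood well above the other 5 libraries. The CPM was 0.536 ± 0.422 in Control and 0.175 ± 0.063 with rhCYGB (SD, n = 3), with a log2 fold change of -1.56 (SE 0.59, adjusted p = 0.0257, edgeR). The call ended without Control replicate 1 (log2 fold change -0.72, adjusted p = 0.287, edgeR), without rhCYGB replicate 1 (-1.49, adjusted p = 0.0706) and without rhCYGB replicate 2 (-1.36, adjusted p = 0.0774). Without Control replicate 1 the change was thus far smaller, and without either treated library its size stayed similar while the test was no longer passed.

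The make-up of the sestrin family therefore shifted towards SESN2. Per transcript length, SESN2 was 80.4% ± 2.01 (SD, n = 3) of the summed FPKM of the 3 sestrins in Control and 96.8% ± 0.538 with rhCYGB. The groups did not overlap, and an exact permutation test gave p = 0.1 (two-sided), the smallest that 3 against 3 libraries allow. Against the GATOR2 subunits MIOS, WDR24 and WDR59 together, which form part of the complex that sestrins bind, SESN2 FPKM was 0.463 ± 0.0477 in Control and 3.26 ± 0.0392 with rhCYGB. This ratio compares mRNA levels only, and it does not cover the whole complex. It leaves out the GATOR2 subunits SEH1L and SEC13, named after their values were seen. SEH1L was at 32.3 FPKM in Control and 49.4 with rhCYGB, and SEC13 at 38.5 and 31.7.

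DDIT4, known as a gene induced by hypoxia, DNA damage and the stress factor ATF4, showed the strongest rise of the 10 genes. It had 3068, 3724 and 3003 counts in Control and 34148, 30114 and 33284 with rhCYGB. The treated libraries all lay far above Control and, after scaling, close to each other. The CPM was 79.7 ± 5.26 and 909 ± 8.85 (SD, n = 3), a log2 fold change of 3.51 (SE 0.047, adjusted p = 8.77e-17, edgeR's quasi-likelihood test), the 94th largest of all genes tested.

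DDIT4L, a paralogue also called REDD2, had 1402, 1656 and 1480 counts in Control and 2709, 2312 and 2608 with rhCYGB. Its groups were separate, and the rise stayed just under the 2-fold limit. The CPM was 37.0 ± 0.671 and 71.1 ± 1.74 (SD, n = 3), a log2 fold change of 0.94 (SE 0.046, adjusted p = 3.76e-11, edgeR). Per transcript length, DDIT4 was 3.22 ± 0.168 times DDIT4L in Control and 19.1 ± 0.318 times with rhCYGB. The paralogues thus moved by unequal amounts, with no overlap of the ratio between groups (exact permutation p = 0.1, two-sided, the smallest possible).

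RRAGC and RRAGD, known as genes bound by the lysosomal factors TFEB and TFE3, rose to similar extents. RRAGC had 1754, 1985 and 1853 counts in Control and 6481, 5533 and 6288 with rhCYGB. RRAGD had 1748, 2145 and 1905 counts in Control and 7654, 6652 and 7034 with rhCYGB. For both genes each treated library exceeded each Control library by more than 2-fold in CPM. RRAGC rose in CPM from 45.6 ± 1.40 to 170 ± 4.08 (SD, n = 3), by 1.90 on the log2 scale (SE 0.042, adjusted p = 6.61e-15, edgeR). RRAGD rose in CPM from 47.2 ± 0.613 to 199 ± 7.67, by 2.08 on the log2 scale (SE 0.042, adjusted p = 2.93e-15, edgeR).

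The genes of their partners RagA and RagB changed far less. RRAGA, which was chosen for mention after its values were seen, had a log2 fold change of 0.03 (adjusted p = 0.675, edgeR), and RRAGB, chosen likewise, a value of 0.22 (adjusted p = 0.0354, edgeR). Summed FPKM of RRAGC and RRAGD was 0.721 ± 0.0157 of that of RRAGA and RRAGB in Control and 2.71 ± 0.0371 with rhCYGB (SD, n = 3). The order of these Rag pairs in mRNA level was thus turned round in all 3 treated libraries (exact permutation p = 0.1, two-sided, the smallest possible). Within the pair, RRAGC was 1.78 ± 0.0733 times RRAGD in Control and 1.57 ± 0.0595 times with rhCYGB.

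The 250 bases upstream of the transcription start are shown for DDIT4, SESN2 and RRAGC, the strongest rises among the DDIT4 pair, the sestrins and, with RRAGD, the Rag genes. They come from the RefSeq promoter table (GRCh38.p14), in which windows of 8 of the 10 genes were read, those of DEPTOR and RRAGD not included, and SESN1 had 3 start sites. These motifs were searched on both strands: CARE (TGATGNAAT, the kind of element ATF4 binds), CLEAR-type (TCACGTGA, bound by TFEB), E-box (CACGTG), forkhead (GTAAACA, bound by FOXO factors) and the hypoxia core (ACGTG). The E-box letters contain the hypoxia core, and the CLEAR-type letters contain both. Capitals mark a match:
DDIT4, chr10:72273674-72273923, plus strand: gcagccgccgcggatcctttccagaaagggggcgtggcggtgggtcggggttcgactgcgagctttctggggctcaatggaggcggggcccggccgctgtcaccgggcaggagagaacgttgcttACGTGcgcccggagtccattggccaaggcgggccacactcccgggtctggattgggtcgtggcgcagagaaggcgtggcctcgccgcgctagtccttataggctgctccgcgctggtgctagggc
SESN2, chr1:28259268-28259517, plus strand: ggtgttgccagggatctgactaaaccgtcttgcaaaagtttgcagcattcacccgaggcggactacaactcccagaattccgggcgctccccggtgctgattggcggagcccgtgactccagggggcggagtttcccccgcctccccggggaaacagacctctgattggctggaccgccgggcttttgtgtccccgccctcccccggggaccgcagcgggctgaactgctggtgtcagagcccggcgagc
RRAGC, chr1:38859773-38860022, minus strand: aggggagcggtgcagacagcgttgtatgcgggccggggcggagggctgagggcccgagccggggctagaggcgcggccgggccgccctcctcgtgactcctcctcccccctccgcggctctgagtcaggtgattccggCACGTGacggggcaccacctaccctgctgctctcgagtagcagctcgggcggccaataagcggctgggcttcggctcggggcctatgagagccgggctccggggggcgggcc

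The RRAGC sequence holds an E-box that begins 112 bases before the start, with the hypoxia core inside it on both strands. E-boxes were present in 7.26% of the 35116 promoter windows of the table. The DDIT4 sequence holds a hypoxia core on the plus strand, 125 bases before the start, and 21.4% of all windows hold these letters. None of the searched letters occurred in the windows of SESN1, SESN2, SESN3, DDIT4L, MTOR and RPTOR, where CARE was found in 0.991%, the CLEAR-type motif in 0.980% and the forkhead motif in 3.42% of all windows. In GENCODE, another gene catalogue, the bases just after the start occurred in 1 transcript each of DDIT4 and RRAGC. They occurred in 0 for SESN2, MTOR and window 3 of SESN1, so those starts were not matched there. These motif matches describe letters in the windows and nothing was measured about binding.

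MTOR and RPTOR, which encode the kinase and the scaffold of mTORC1, were lower with rhCYGB. MTOR had 5017, 6339 and 5999 counts in Control and 3290, 3029 and 3640 with rhCYGB. RPTOR had 1474, 1654 and 1607 counts in Control and 936, 996 and 1067 with rhCYGB. The groups were separate for both genes. MTOR fell from 141 ± 6.22 to 92.8 ± 5.31 CPM (SD, n = 3; log2 fold change -0.60, SE 0.048, adjusted p = 1.36e-08, edgeR). RPTOR fell from 38.6 ± 1.49 to 28.0 ± 2.50 CPM (log2 fold change -0.46, SE 0.065, adjusted p = 1.03e-05, edgeR). The MTOR to RPTOR ratio in FPKM was 2.87 ± 0.176 in Control and 2.60 ± 0.190 with rhCYGB, with overlapping groups (exact permutation p = 0.3, two-sided).

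DEPTOR, the inhibitory subunit, had 121, 145 and 122 counts in Control and 63, 86 and 52 with rhCYGB. All treated libraries were below Control, and they were more spread among themselves. DEPTOR fell from 3.16 ± 0.145 to 1.90 ± 0.613 CPM (SD, n = 3; log2 fold change -0.74, SE 0.215, adjusted p = 0.00566, edgeR). Without rhCYGB replicate 2 the log2 fold change was -1.02 and the gene passed the 2-fold limit. Among the inhibitors of mTORC1 within the 10 genes, DDIT4 and SESN2 thus rose while DEPTOR fell. SESN1 rose by less than 2-fold, and SESN3, close to undetectable, was lower. Inhibitors outside the 10 genes are not covered by this comparison.

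**Figure D2:**
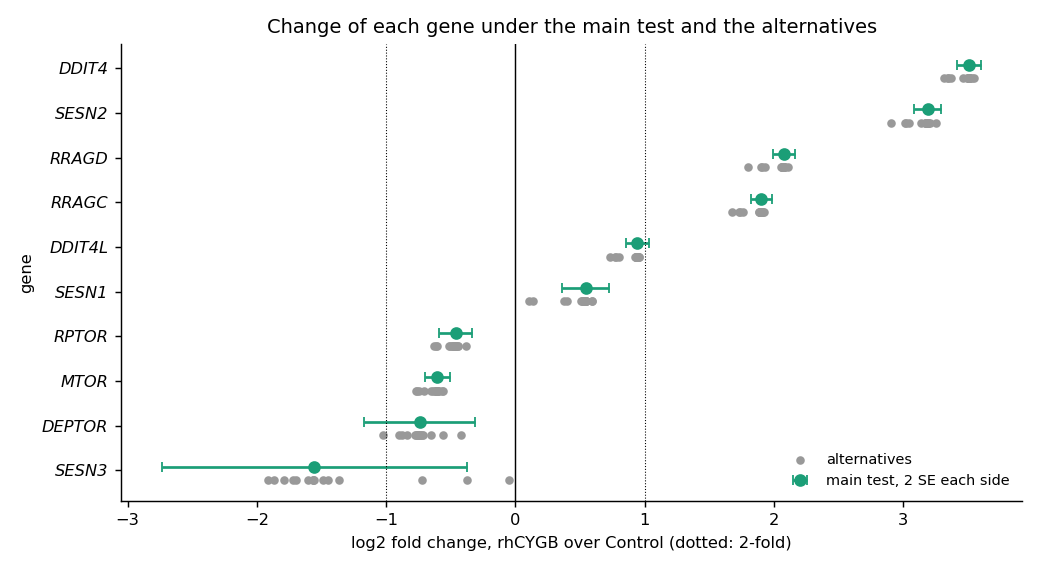
Log2 fold change of each of the 10 genes, rhCYGB over Control (green, with 2 SE to each side, edgeR's quasi-likelihood test on 3 against 3 libraries), and the same under up to 16 other ways of processing (grey). DDIT4, SESN2, RRAGD and RRAGC stay beyond the dotted 2-fold line under every alternative, while SESN3 spans from -1.92 to -0.05.

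Compared per transcript length, the order of the genes changed between the groups. In Control, DDIT4 was the highest at 42.6 ± 2.50 FPKM (SD, n = 3), followed by RRAGC at 15.9 ± 0.466 and MTOR at 15.1 ± 0.779, whose libraries overlapped. DDIT4L followed at 13.2 ± 0.145 FPKM, then SESN2 at 9.64 ± 0.725 and RRAGD at 8.93 ± 0.107, which overlapped too. RPTOR, SESN1, DEPTOR and SESN3 were lower, at 5.27, 2.29, 1.14 and 0.051 FPKM, with no overlap between neighbours.

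With rhCYGB, DDIT4 was again highest, at 434 ± 10.7 FPKM, and SESN2 came next at 78.6 ± 2.63. RRAGC followed at 52.9 ± 2.22, RRAGD at 33.6 ± 1.21 and DDIT4L at 22.7 ± 0.923 FPKM. MTOR had dropped below all of these, at 8.85 ± 0.642 FPKM, and the 4 lowest genes were in the same order as in Control. No neighbours overlapped in the treated group. DDIT4 FPKM was 2.83 ± 0.292 times that of MTOR in Control and 49.1 ± 3.13 times with rhCYGB (SD, n = 3).

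**Figure D3:**
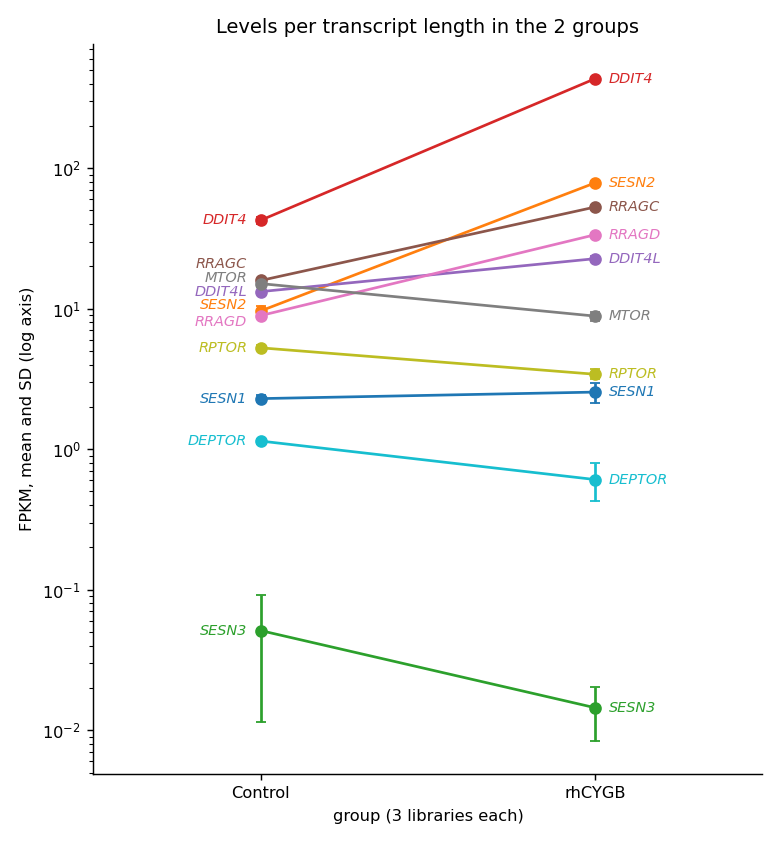
Mean FPKM of the 10 genes in Control and rhCYGB on a log axis, with SD over 3 libraries. SESN2 moves from 9.64 to 78.6 FPKM and from the fifth to the second place, and MTOR moves from 15.1 to 8.85 FPKM.

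The transcript table listed 16 RefSeq transcripts of the 10 genes, of which 12 passed the filter. With edgeR's quasi-likelihood test over 32577 transcripts, 16.9% of all were called, and 4 transcripts of these genes were called higher, those of SESN2, DDIT4 and RRAGD and variant 1 of RRAGC. Transcripts called lower numbered 0, with 2 lower at an unadjusted p under 0.05 and 2 at an adjusted p under 0.05, the latter those of MTOR and RPTOR variant 1. SESN2, DDIT4, DDIT4L, RRAGD and MTOR had a single listed transcript each. RRAGC variant 2 held at most 5.02% of the gene's counts in any library, and variant 1, which held the rest, had a log2 fold change of 1.86 (adjusted p = 6.52e-06, edgeR).

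SESN1 was the gene whose counts were most divided between variants. Variant 1, the longest at 5664 bases, had 210, 200 and 121 counts in Control and 390, 208 and 375 with rhCYGB. Variant 2, of 2681 bases, had 137, 184 and 225 counts in Control and 66, 223 and 130 with rhCYGB. The share of variant 1 ran from 35.0% to 58.8% in Control and from 48.3% to 85.5% with rhCYGB, so the groups overlapped. Its log2 fold change was 0.96 (SE 0.336, adjusted p = 0.0887, edgeR), and that of variant 2 was -0.22 (adjusted p = 0.804), so neither passed the test. Such counts are estimates, since reads common to variants are divided among them by the authors' software.

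**Figure D4:**
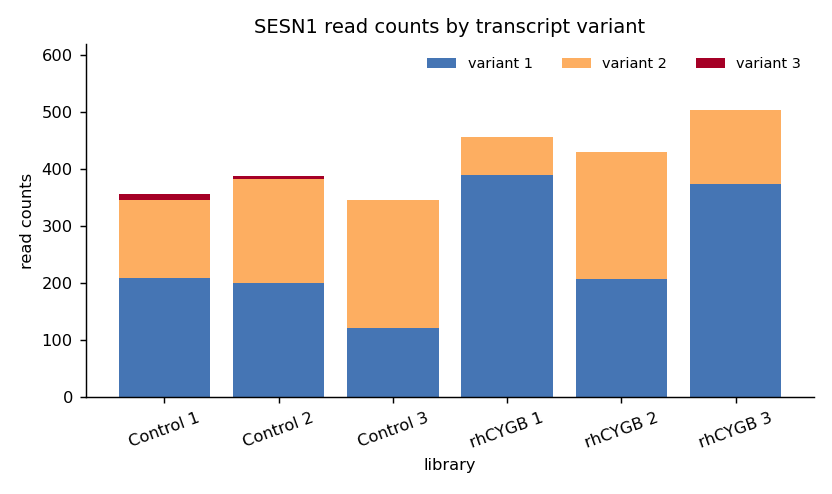
SESN1 read counts in each library, stacked by transcript variant. Treated replicate 2, at 208 counts for variant 1 and 223 for variant 2, resembles the Control libraries in its division, while treated replicates 1 and 3 are mostly variant 1.

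In the files, SESN2 lies at chr1:28586029-28609002, RRAGC at chr1:39303870-39325444, MTOR at chr1:11166592-11322608, DDIT4 at chr10:74033682-74035794 and SESN1 at chr6:109305512-109416049. RRAGD lies at chr6:90074335-90121992, DDIT4L at chr4:101107027-101111625, SESN3 at chr11:94898677-94965639, RPTOR at chr17:78518638-78940168 and DEPTOR on chromosome 8. These positions span each gene's transcripts, exons and introns included, in a build that the files do not name and that is not the GRCh38 of the promoter sequences. SESN2, DDIT4, DEPTOR, RRAGC and RRAGD overlapped no other listed gene, and genes that overlapped MTOR, RPTOR, SESN3 and DDIT4L had 3 or fewer counts in any library.

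The wider mTORC1 pathway, transcription factors known for the 10 genes and targets of those factors were described through 10 lists. They held 118 other genes, all of which were tested. Of these, 33 were called higher (28.0%, background 12.4%) and 5 lower (4.24%, background 14.7%). With the adjusted p alone 74 were higher and 33 lower. The share called higher ran from 0% to 18.2% in the lists of pathway proteins. It ran from 46.7% to 66.7% in the lists of factors and their targets. The pooled share thus does not describe the pathway lists. The median log2 fold change over the 118 genes was 0.40, beside -0.0046 over all genes tested. Lists were described by counts and medians, with no test of a list as a whole, and they too were chosen with earlier results known.

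Of 8 other subunits of the mTOR complexes, 1 was called higher and 1 lower (12.5% each, close to the backgrounds of 12.4% and 14.7%), with a median log2 fold change of -0.26. MAPKAP1, which encodes the mTORC2 subunit SIN1, fell to 46.7 ± 2.71 from 104 ± 1.00 CPM (SD, n = 3; log2 fold change -1.16, adjusted p = 5.55e-12, edgeR). PRR5L, which encodes an mTORC2-binding protein, rose from 0.305 to 0.927 CPM (log2 fold change 1.57, adjusted p = 0.00777, edgeR). It was close to undetectable, and the counts of 6, 25 and 8 in Control and 52, 18 and 31 with rhCYGB overlapped.

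Of 11 further genes around the Rag GTPases, 2 were called higher (18.2%, near the background of 12.4%), and with the adjusted p alone 5 were higher and 5 lower (background 77.6% in either direction; median log2 fold change 0.03). FLCN, which encodes folliculin, the activator of RagC and RagD, rose from 45.1 ± 2.70 to 112 ± 5.62 CPM (SD, n = 3; log2 fold change 1.31, adjusted p = 4.84e-12, edgeR). FNIP1, which encodes its binding partner and was named after its values were seen, rose with a log2 fold change of 1.17 (adjusted p = 2.08e-11, edgeR).

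Among 16 genes of GATOR, KICSTOR and the amino acid sensors, the complexes on which sestrins act, 1 was called (6.25%, background 27.1% in either direction). By the adjusted p alone 6 were higher and 8 lower (background 77.6%), with a median log2 fold change of -0.15. The called gene, CASTOR2, a relative of the arginine sensor CASTOR1, fell from 5.26 ± 0.436 to 1.93 ± 0.485 CPM (SD, n = 3; log2 fold change -1.44, adjusted p = 3.28e-06, edgeR). None of the 5 genes of the TSC complex and RHEB, through which DDIT4 acts, passed the 2-fold limit in edgeR's test (background 27.1%), while by the adjusted p alone 3 were higher and 1 lower (background 77.6%). RHEB had the largest change of them, from 124 ± 4.30 to 212 ± 10.3 CPM (log2 fold change 0.77, adjusted p = 2.31e-10, edgeR). Within the AKT and AMPK kinases 2 of 14 were called higher (14.3%, close to the background of 12.4%; median 0.30). These were PRKAB1, which encodes an AMPK beta subunit (log2 fold change 1.21, adjusted p = 2.14e-10, edgeR), and PRKAA2, an AMPK alpha subunit named after its values were seen (1.12, adjusted p = 9.83e-07).

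Of 16 substrates and effectors of mTORC1, 2 were called higher and 2 lower (12.5% each, close to the backgrounds of 12.4% and 14.7%; median log2 fold change 0.23). GRB10, which encodes an mTORC1 substrate that dampens insulin signalling, rose from 31.6 ± 1.45 to 127 ± 2.51 CPM (SD, n = 3; log2 fold change 2.01, adjusted p = 1.12e-14, edgeR). The translation repressors moved apart, since EIF4EBP2 fell (log2 fold change -1.25, adjusted p = 1.43e-12, edgeR) and EIF4EBP1, named after its values were seen, rose (1.66, adjusted p = 2.89e-13). LPIN1, the lipin gene, named likewise, fell with a log2 fold change of -1.09 (adjusted p = 1.19e-12, edgeR). RNA levels do not measure the phosphorylation through which mTORC1 acts on these proteins.

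**Figure D5:**
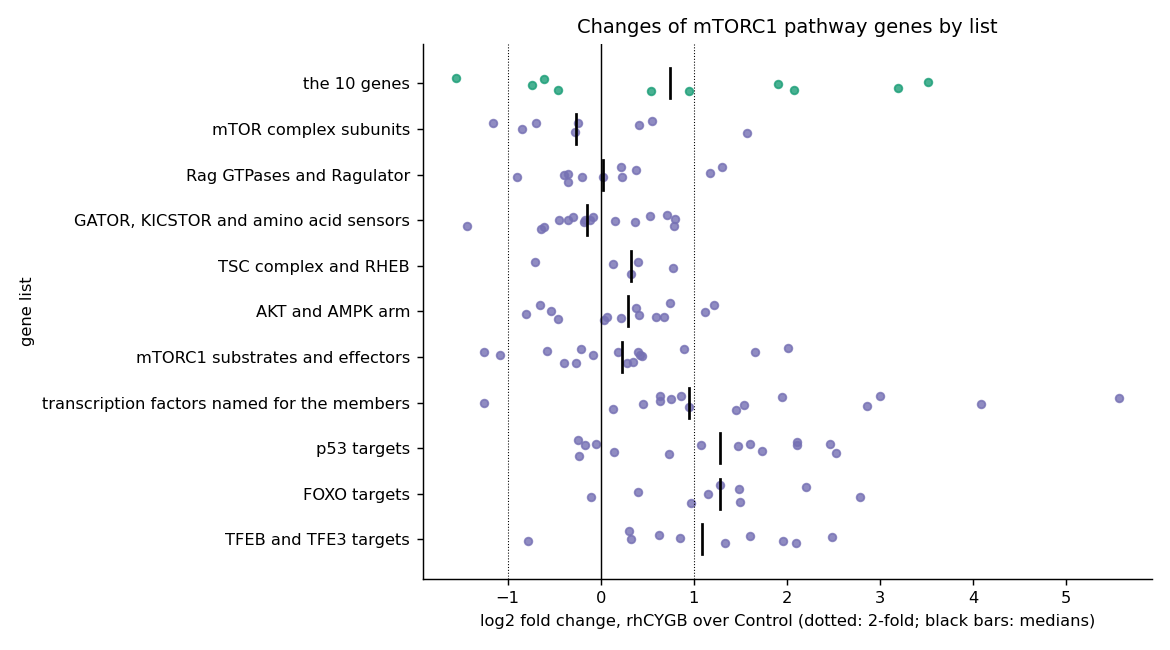
Log2 fold changes, rhCYGB over Control, of the 10 genes (green) and of 118 other genes in 10 lists (purple), with the median of each list as a black bar and 2-fold marked by dotted lines. Medians of the lists of pathway proteins lie between -0.26 and 0.33, and those of the lists of transcription factors and their targets between 0.95 and 1.29.

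Of 15 transcription factors known for regulating these genes, 7 were called higher (46.7%, background 12.4%) and 1 lower (background 14.7%), with a median log2 fold change of 0.95. With the adjusted p alone 14 were higher and 1 lower, beside 77.6% of all genes tested in either direction. ATF3 rose from 5.61 ± 0.933 to 266 ± 8.22 CPM (SD, n = 3; log2 fold change 5.57), DDIT3, which encodes CHOP, from 14.7 ± 3.04 to 248 ± 6.24 CPM (4.09), and ATF4 from 209 ± 16.8 to 809 ± 31.3 CPM (1.95), all factors of the integrated stress response. CEBPB, an ATF4 partner, rose with a log2 fold change of 3.00, and NFE2L2, the antioxidant factor NRF2, with a log2 fold change of 1.45. TFEB, the regulator of lysosomal genes, rose from 1.98 ± 0.210 to 14.4 ± 1.17 CPM (log2 fold change 2.86). FOXO3 rose (log2 fold change 1.54) and FOXO4 fell (-1.25, adjusted p = 4.22e-05). Adjusted p values in edgeR's quasi-likelihood test for the 7 higher factors ranged from 6.64e-17 to 1.04e-11. HIF1A, the hypoxia factor known for DDIT4, chosen after its values were seen, had a log2 fold change of 0.14 (adjusted p = 0.00601, edgeR).

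Lists of known targets of these factors, the 10 genes left out, were described in the same way. Of 14 p53 targets 8 were called higher (background 12.4%), with a median log2 fold change of 1.28. With the adjusted p alone 9 were higher and 3 lower, beside 77.6% of all genes tested in either direction. BBC3, which encodes the cell death protein PUMA, rose most of them (2.53, adjusted p = 7.37e-15, edgeR). Of 9 FOXO targets 6 were called higher (background 12.4%, median 1.29), led by IRS2, an adaptor of the insulin receptor (2.78, adjusted p = 1.51e-14, edgeR). Of 10 TFEB and TFE3 targets 5 were called higher (background 12.4%, median 1.09). GABARAPL1, an autophagy gene, rose most (2.49, adjusted p = 1.48e-14, edgeR). SQSTM1, WIPI1, UVRAG and NEU1 were the others, named after their values were seen, with log2 fold changes of 1.95, 2.10, 1.60 and 1.33. MIA PaCa-2 cells are known to carry mutant p53, and no factor's activity was measured here.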

How the data were processed

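mRNA libraries (TruSeq Stranded) of MIA PaCa-2 cells, 3 Control and 3 rhCYGB, were grouped by their labels. The submitters' processing notes name FastQC 0.11.7, HISAT2 2.1.0 and StringTie 2.1.3b. The authors deposited read counts per gene and per transcript as raw whole numbers. Deposited alongside are FPKM values, which the authors scaled to transcript length and library depth. Those notes list mm10, a mouse build, although the genes and accessions are human, and the files name no build. Positions reach 249231298 on chromosome 1, past the last GRCh38 gene end at 248937099, so promoter sequences were matched by symbol only. The 12 TPM columns were not used.

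Counts were tested with edgeR 4.0.16 in R 4.3.3 (filterByExpr, TMM factors, quasi-likelihood test, Benjamini-Hochberg adjustment over all genes or transcripts tested, no block). CPM values use TMM-scaled library sizes. Depth was 34838399 to 42271299 counts per library, and floors cover counting error only. FPKM ratios were compared by exact permutation tests, two-sided, for which 0.1 is the smallest p. Only the main edgeR fit of genes was run on simulated counts, with far fewer changed genes than in these data. The other fits were not run on such counts.

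The 10 genes and the lists were chosen with earlier results of these data known. Named were all 10 genes, the largest rise and the largest fall among the called genes of each list, every called transcription factor and, in a list with no call, the gene with the largest change at an adjusted p under 0.05. Other genes of the lists are marked as named after their values were seen, apart from MIOS, WDR24 and WDR59, which were used in a ratio. CEP57L1 was named for its overlap with SESN1. The FPKM ratios were not among the tests planned beforehand. Some list symbols were matched through older names. The 16 alternative fits were DESeq2's size factors, upper-quartile factors, total counts, the Wald test of DESeq2 1.42.0, no filter, limma 3.58.1 on log2(FPKM + 1) or on log2(FPKM + 0.1), at least 10 counts in every library, counts summed from transcripts, a replicate block, and each of the 6 libraries left out. Calls by adjusted p alone were counted as well.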

Additional observations from a re-analysis of the deposited data

How the results depend on the processing

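DDIT4, SESN2, RRAGC and RRAGD were called higher under all 16 alternatives, with log2 fold changes of 3.32 to 3.55, 2.91 to 3.26, 1.68 to 1.92 and 1.80 to 2.11. No log2 fold change of the 10 genes changed sign. DDIT4L (0.74 to 0.96), MTOR (-0.77 to -0.56), RPTOR (-0.63 to -0.38) and DEPTOR (-1.02 to -0.42) passed an adjusted p under 0.05 in all 16, and SESN1 (0.10 to 0.60) in 14, missing it in both limma fits (adjusted p of 0.325 and 0.343).

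The number of the 10 genes called lower was 1 with the main settings. It was 0 with limma on log2(FPKM + 1), 0 with log2(FPKM + 0.1) and 0 with at least 10 counts in every library, which removed SESN3, and 4 with the adjusted p alone. Leaving out each library gave 0 to 1. SESN3 lost its call without Control replicate 1, rhCYGB replicate 1 or rhCYGB replicate 2, and in the last case DEPTOR was called in its place. Of the 118 genes of the lists, 74 were higher and 33 lower with the adjusted p alone, against 33 and 5 with the 2-fold limit. Dropping the fold limit makes the rule wider by construction. In every library the FPKM of SESN3 was under the added 1 or 0.1, so neither limma fit could show a 2-fold fall for it. The cause of other differences in the limma fits was not tested.

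Same-numbered libraries of the groups did not visibly deviate together (correlations of -0.048, 0.0072 and 0.0055). The labels do not say whether samples of the same number were prepared together, and these correlations cannot decide it. A fit with a replicate block called the same numbers of the 10 genes, 4 higher and 1 lower, and 3978 genes in all against 3998. Total counts moved the median log2 fold change of all genes by -0.165, upper-quartile factors by -0.141 and log2(FPKM + 0.1) by -0.147. Depth limits SESN3, which had 38 counts or fewer in every library, and the variants of SESN1.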
